A study of Caenorhabditis elegans with 12 samples.

Results

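The regions described here are sites of Caenorhabditis elegans chromatin that lay just outside protein-coding genes and held a window in every one of 3 precipitates of the transcription factor ETS-5. Overlapping windows of the 3 deposited lists, with 1 bp in common or more, were joined, and a joined region with a window of every list is called shared. The centre of a shared region is the mean of the centres of its windows. Those with a centre outside every protein-coding gene and at most 500 bp from the nearest one, 373 of 1788 shared regions (20.9%), are called gene-flanking regions below. They were chosen by the presence of windows in all 3 lists and by position, so their number is a description. Each of the 373 held 3 windows, 1 from each list.

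The series compared worms with tagged ETS-5 (strain FQ237) with wild-type worms (strain N2), in 12 samples that form 4 groups of 3. Each strain gave inputs and precipitates made with an anti-GFP antibody (ab290). Extracts were of whole worms fed E. coli OP50, so all tissues were pooled, and the sources used here give neither stage nor how the tag was introduced. Only the 3 ETS-5 precipitates were used. The wild-type precipitates and the inputs were not analysed here, so no site was compared with the same antibody in worms without the tag. Separate cultures are not stated for the 3 samples, and the SD over them may therefore be technical.

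ETS factors bind DNA through a winged helix-turn-helix domain that recognises a core of GGAA, and many bind close to the starts of genes. ETS-5 is known for its part in the BAG neurons, head sensory neurons that detect respiratory gases. Worm genes lie close together, and a short stretch between neighbouring genes can hold the promoters of both. Many worm transcripts are trans-spliced, which removes the leading part of the RNA, so an annotated gene end can lie inside the transcribed stretch. The gene table used here gives gene ends without strand, so a region beside a gene can lie at its 5′ or its 3′ end.

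Each list placed more of its windows just outside genes than the share of the genome there, as it also did further from genes. The positions within 500 bp outside protein-coding genes make up 11.9% of the genome. Of the 3811 windows of replicate 1, 18.2% had their centre there (693 windows). The share was 21.1% of the 2915 windows of replicate 2 (614 windows) and 22.5% of the 3697 windows of replicate 3 (831 windows). The mean was 20.6% ± 2.19 (SD, n = 3), and the exact 95% binomial interval of each list lay above the share of positions, with a lower bound of 16.97% in replicate 1. The 2 classes further out also lay above their positions, with 21.9% ± 1.82 of windows (SD, n = 3) on 14.03% of positions from 500 to 2000 bp and 20.97% ± 0.425 (SD, n = 3) on 12.2% beyond 2000 bp. Windows inside genes went the other way, with 36.6% ± 2.59 (SD, n = 3) of windows on 61.9% of positions. Such intervals take windows as independent and show counting error only. The lists hold no read counts, so the depth behind each window is unknown.

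Windows beside genes were found again in the other lists at a rate whose difference from windows elsewhere was smaller than its spread between lists. In replicate 1, 54.3% of them overlapped a window of both other lists, in replicate 2 60.7% and in replicate 3 44.3%. For windows inside genes the shares were 42.5%, 63.6% and 46.3%. The difference was 2.29 percentage points ± 8.21 (SD, n = 3), positive in 1 of 3 lists (exact two-sided sign-flip permutation p = 1, where 3 lists cannot give less than 0.25). Against windows from 500 to 2000 bp out the difference was -2.85 ± 8.46 points (exact p = 0.75), and against windows beyond 2000 bp it was 3.78 ± 6.03 points (exact p = 0.5). All 3 comparisons had an adjusted p of 1. In replicate 1 the windows beside genes were recovered most often of the 4 position classes, and in replicate 3 they were recovered least often. The recovered windows beside genes numbered 376, 373 and 368 in replicates 1 to 3. A window that overlaps both other lists lies in a shared region, so these are largely the same sites. The percentages thus vary mainly with the number of windows in each list. The 3 lists are not independent here, so the test cannot decide whether position affects recovery.

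**Figure D1:**
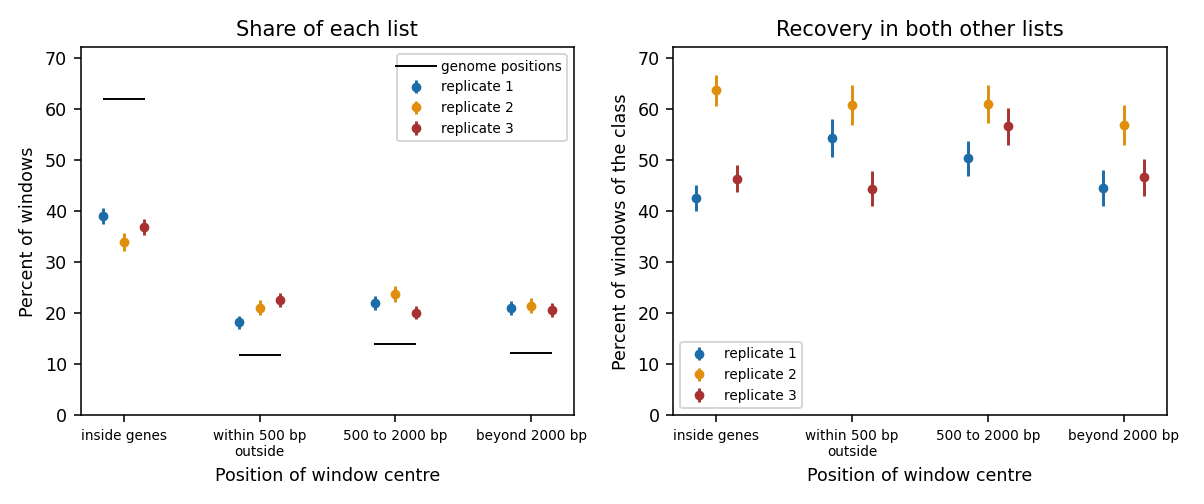
The left panel plots the percent of each list's windows in 4 position classes, with exact 95% binomial intervals and black bars for the percent of genome positions; the right panel plots the percent of windows of each class that overlapped both other lists. All 3 lists lie above the positions in the 3 classes outside genes and below them inside genes, and the order of the classes in the right panel differs between lists.

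Gene-flanking regions lay from 100 to 300 bp off the annotated gene end more often than positions did, and less often nearer to it. Their centres lay a median of 214 bp from the nearest gene, with quartiles of 124 and 314 bp. That median is close to the 204 bp of all positions within 500 bp, and the limit bounds both. From 100 to 300 bp lay 208 of the 373 regions, which is 55.8% (exact 95% binomial interval 50.6% to 60.9%) against 41.96% of positions within 500 bp. The first 100 bp held 62 regions (16.6%) against 26.6% of positions. From 300 to 500 bp the share was 27.6% against 31.4%. The same held in each full list, where 54.0%, 55.0% and 54.6% of the windows within 500 bp lay from 100 to 300 bp out (54.6% ± 0.545, SD, n = 3). The fullest step of 50 bp was from 150 to 200 bp, with 62 regions. Since every window is 400 bp wide, 207 of the merged regions (55.5%) still reached into a gene and 166 lay wholly outside.

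**Figure D2:**
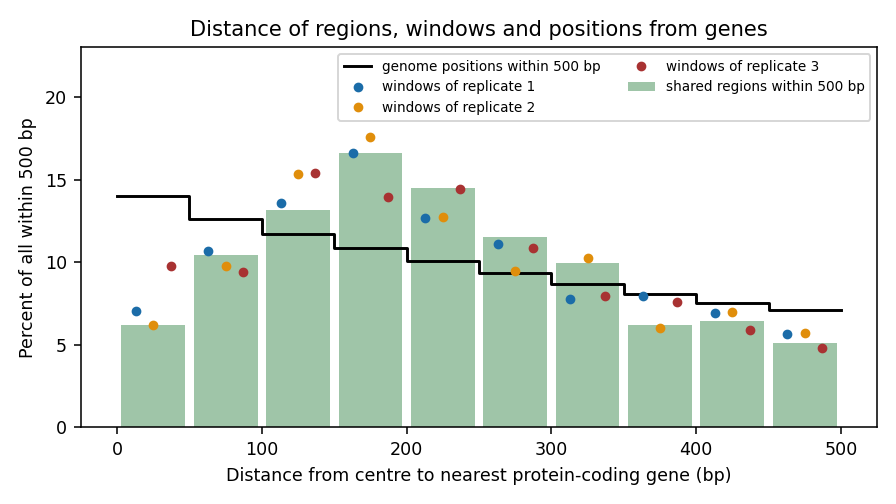
The plot gives the percent of gene-flanking regions (bars), of each list's windows within 500 bp (points) and of genome positions within 500 bp (line) in steps of 50 bp from the nearest protein-coding gene. Bars rise to 16.6% from 150 to 200 bp, while the line falls steadily from 14.0% at the gene.

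Gene-flanking regions were more frequent than their positions on the X chromosome and chromosome I, and less frequent on chromosomes V and II. The other shared regions went the same way on these chromosomes. On the X chromosome lay 22.1% of them against 17.8% of positions outside the class, and on chromosome V 16.7% against 20.2%. Their differences were small on chromosome I, with 16.04% against 15.3%, and on chromosome II, with 14.8% against 15.07%. Gene-flanking regions numbered 89 on the X chromosome (23.9%, exact 95% binomial interval 19.6% to 28.5%) against 16.4% of positions within 500 bp of genes. Chromosome I held 68 (18.2%, 14.4% to 22.5%) against 12.9%. Chromosome V held 60 (16.1%, 12.5% to 20.2%) against 26.03%, and chromosome II held 46 (12.3%, 9.17% to 16.1%) against 16.5%. Per Mb of such positions this came to 45.5 regions on the X chromosome and 19.3 on chromosome V. The intervals of chromosomes III and IV held their shares of positions. On the X chromosome the lists ranged widely, with 23.7% of the windows within 500 bp of genes in replicate 1, 22.1% in replicate 2 and 18.1% in replicate 3 (21.3% ± 2.90, SD, n = 3). On chromosome V all 3 lists lay low, at 17.03%, 16.1% and 14.7% (15.9% ± 1.18, SD, n = 3). Chromosome I had 17.5%, 18.1% and 19.4%. Chromosome II had 13.7%, 13.8% and 16.0%, so that replicate 3 lay close to the share of positions there.

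**Figure D3:**
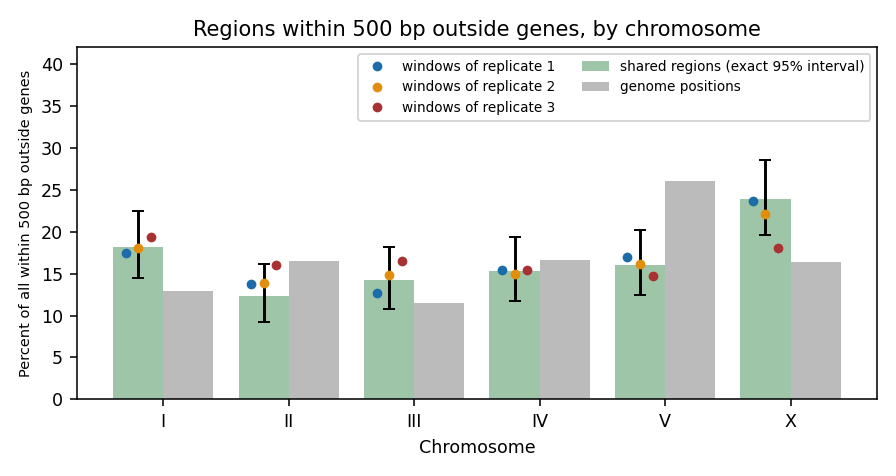
Green bars give the percent of gene-flanking regions on each chromosome with exact 95% binomial intervals, grey bars the percent of genome positions within 500 bp outside genes, and points the windows of each list there. Green exceeds grey most on the X chromosome (23.9% against 16.4%) and falls furthest below it on chromosome V (16.1% against 26.03%).

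The place of a region in the lists was not used to choose it, although the sources used here do not state what the order of lines stands for. Gene-flanking regions ran from line 12 to 3538 in replicate 1, with a median of 1168. In replicate 2 they ran from line 10 to 2894 with a median of 1011, and in replicate 3 from line 19 to 3613 with a median of 1148. As a share of the list, the medians were 30.6%, 34.7% and 31.1%. For shared regions inside genes they were 25.4%, 38.4% and 39.7%. Replicate 3 thus listed gene-flanking regions early relative to those inside genes, and replicate 1 listed them late. Among shared regions in the first 10% of lines, 53 of 355 (14.9%) were gene-flanking in replicate 1, 56 of 279 (20.1%) in replicate 2 and 79 of 260 (30.4%) in replicate 3, against 20.9% of all shared regions. The exact 95% binomial interval was 11.4% to 19.1% in replicate 1 and 24.9% to 36.4% in replicate 3. Replicate 3 gave the earliest relative line for 46.4% of gene-flanking regions and for 29.2% of all other shared regions. Across the 373 regions, the line numbers of replicates 1 and 2 had a Spearman's rho of 0.82, those of replicates 1 and 3 of 0.34 and those of replicates 2 and 3 of 0.33, as a description across sites that share libraries.

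The earliest-listed gene-flanking regions stood beside genes of varied function. Positions are given in the coordinates of the files, counted from 1, and the sources used here do not name their build. The region with the lowest mean relative line, on chromosome IV from 4792233 to 4792711, stood at lines 12, 71 and 78 of replicates 1 to 3 and lay 498 bp from R11E3.1, close to the limit of 500 bp. Next came a region on chromosome V from 9546783 to 9547198 at lines 70, 48 and 51. It lay in a gap of 263 bp between the histone gene his-37, 115 bp away, and C50F4.6, 149 bp away. Some histone genes are near-identical to each other, which makes windows there uncertain.

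Genes of axons and of the cytoskeleton stood beside other early regions. A region 294 bp from unc-76, whose FEZ family protein acts in axon bundling, stood at lines 14, 12 and 174. One 280 bp from unc-115, which encodes an actin-binding protein of axon guidance, stood at lines 45, 32 and 231. One 166 bp from twf-2, a twinfilin gene of actin dynamics, stood at lines 40, 18 and 500. All 3 were listed earlier in replicates 1 and 2 than in replicate 3. The same was true of the region 59.7 bp from scpl-3, named as a phosphatase-like gene, at lines 22, 10 and 251, and of that beside F48G7.4 at lines 19, 14 and 427.

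A further 13 regions made up the 20 earliest. A region 325 bp from pdi-2, which encodes a protein disulfide isomerase of the endoplasmic reticulum, stood at lines 28, 27 and 268. One 94.7 bp from the nuclear hormone receptor gene nhr-3 stood at lines 86, 78 and 106, an even placement. The region 159 bp from gst-16, a glutathione S-transferase gene, stood at lines 71, 178 and 162. That 251 bp from seip-1, the seipin gene of lipid droplets, stood at lines 248, 165 and 152. The region beside tasp-1, a threonine protease gene, stood at lines 259, 271 and 41, so that replicate 3 listed it earliest. The remaining ones lay beside F02E9.10, T10B5.4, pqn-51, F44E5.4, AH9.1, tub-2, rps-28 and rpl-7A.

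Counted over genes, 459 of 19971 protein-coding genes (2.3%) had a gene-flanking region within 500 bp. The gene lists below were chosen with earlier results of these data known, so their counts are given beside that percentage as descriptions. Of the 459 genes, 68.2% carry a gene name in place of a sequence name such as R11E3.1, against 56.4% of all protein-coding genes. Their spans had a median of 2733 bp, against 2006 bp over all protein-coding genes.

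Genes of cytosolic ribosomal proteins, the building blocks of the translation machinery, often had a gene-flanking region. Of 79 genes, 16 (20.3%) had a gene-flanking region, at 15 regions, and 1 had a shared region inside the gene. Without replicate 2 the count with a gene-flanking region was 25 genes, and within 250 bp it was 4. Over all protein-coding genes a shared region lay inside 2.56%. From 500 to 2000 bp away, 9 of the 79 genes had a shared region, against 944 of all 19971 protein-coding genes. In the full lists, 26 of the 79 genes had a window within 500 bp outside genes in replicate 1, 21 in replicate 2 and 46 in replicate 3. That is 39.2% ± 16.7 (SD, n = 3), against 4.15%, 3.8% and 5.52% of all protein-coding genes in replicates 1 to 3. Replicate 3 stood far above the other lists for these genes. All 3 lists lay above the percentage of all genes.

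The ribosomal regions stood early in replicate 3. The best placed was that 441 bp from rps-28, on chromosome IV from 1659045 to 1659457, at lines 130, 51 and 110 of replicates 1 to 3. That between rpl-7A and set-21, in a gap of 253 bp, stood at lines 356, 105 and 45. The region near rpl-11.2, which is that beside AH9.1 named above, stood at 4.51%, 10.1% and 2.81% of the lists. Each of these was listed among the first 10% of lines in replicate 3. The region near rpl-18A stood at lines 416, 114 and 113, that near rpl-3 at lines 572, 224 and 77, and that near rps-12 at lines 1242, 1294 and 142. Another gene lay nearer to several of the 15 ribosomal regions, as AH9.1, Y17G9B.5 and ska-3 did for those near rpl-11.2, rpl-18A and rps-12. Of the 15 ribosomal regions, 15 stood earlier in replicate 3 than in replicate 1 as a share of the list, against 49.9% of all gene-flanking regions, and 14 stood earlier in replicate 3 than in replicate 2, against 54.7%. Their median place was 31.9% of the list in replicates 1 and 2 and 6.38% in replicate 3. In the first 10% of lines stood 3, 4 and 10 of them in replicates 1 to 3. The region between rpl-41.1 and rpl-41.2, at lines 1799, 930 and 808, lies by a pair of near-identical genes and is uncertain.

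Genes of translation factors went the same way. Of 41 genes, 6 (14.6%) had a gene-flanking region, none had a shared region inside and 3 had one from 500 to 2000 bp away. The region with ifet-1, which encodes a binding protein of the cap-binding factor, also lay near rps-3A and stood at lines 868, 746 and 232. That beside iff-2, a gene of initiation factor eIF5A, stood at lines 1500, 876 and 289, and that between sys-1 and eif-3.C at lines 2005, 559 and 423. All 6 regions, those of eef-1G, eef-1A.2 and eif-3.H included, stood earlier in replicate 3 than in either other list as a share of lines.

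**Figure D4:**
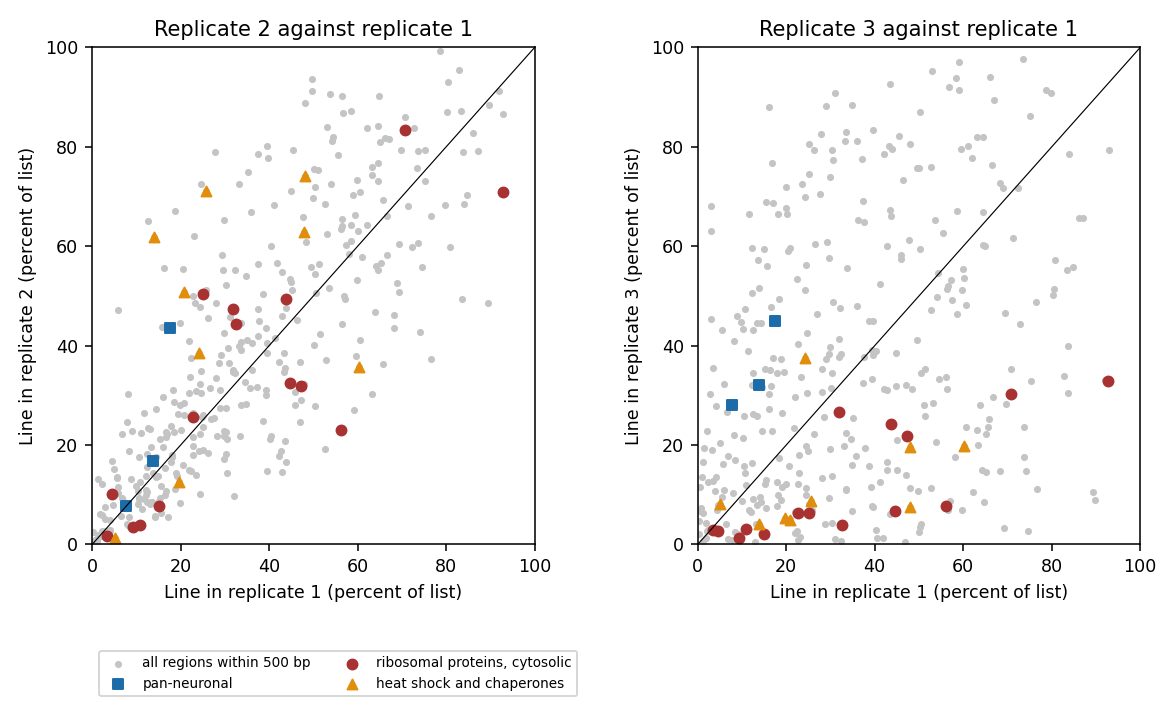
Each point is a gene-flanking region, placed by its line in replicate 1 (x axis) and in replicate 2 or 3 (y axis), as percent of each list; the diagonal marks equal place. In the right panel all 15 cytosolic ribosomal regions lie below the diagonal, with a median place of 6.38% in replicate 3 against 31.9% in replicate 1, and the 3 pan-neuronal regions lie above it.

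Chaperone genes, whose products fold proteins and protect them under stress, had 11 of 61 members with a gene-flanking region (18.03%), at 9 regions. Without replicate 2 the count was 17 genes. A shared region lay inside 5 genes of the list and from 500 to 2000 bp away from 7. The region between T10B5.4 and cct-7, a gene of the cytosolic chaperonin, stood at lines 196, 39 and 301. That between xbp-1, which encodes the transcription factor of the unfolded protein response, and dnj-16, of the DnaJ family, lay in a gap of 379 bp and stood at lines 749, 366 and 197. The region between hsp-110 and the proteasome subunit gene rpn-3, in a gap of 443 bp, stood at lines 1830, 2158 and 277.

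The hsp-16 family of small heat shock genes had 3 regions beside it, which are uncertain because several of these genes are near-identical. On chromosome V the region from 9087705 to 9088197 lay between hsp-16.1 and hsp-16.48 at lines 529, 1802 and 155. The region from 9089694 to 9090163 lay between hsp-16.49 and hsp-16.11 at lines 795, 1478 and 185. Both were listed early in replicate 3 and late in replicate 2. The third, beside hsp-16.41, stood at lines 921, 1124 and 1385. A further region on chromosome II from 11759190 to 11759645 lay between F44E5.4 and F44E5.5, hsp-70 family genes outside the list, at lines 47, 382 and 28. Of the 9 chaperone regions, 7 stood earlier in replicate 3 than in replicate 1. In the full lists 18, 14 and 21 of the 61 genes had a window within 500 bp (29.0% ± 5.76, SD, n = 3).

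Pan-neuronal genes, used by all neurons, had 3 of 21 members with a gene-flanking region (14.3%). A shared region lay inside 6 of the 21 and from 500 to 2000 bp away from 7. Over all 19971 protein-coding genes these numbered 512 and 944. Without replicate 3 the count of pan-neuronal genes with a gene-flanking region was 5, and within 250 bp it was 1. The 3 were rgef-1, a guanine nucleotide exchange factor gene, with its region 275 bp away at lines 295, 226 and 1034, then ehs-1, an endocytosis gene, 228 bp away at lines 527, 489 and 1185, and unc-10, the RIM gene of the active zone, 437 bp away at lines 669, 1272 and 1659. All 3 stood later in replicate 3 than in either other list as a share of lines. In the full lists 5, 5 and 6 of the 21 genes had a window within 500 bp outside genes (25.4% ± 2.75, SD, n = 3).

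The BAG neuron list had 1 of 20 genes with a gene-flanking region (5%), against 2.3% of all protein-coding genes. Without replicate 1 the count was 2. The gene was gcy-33, a soluble guanylyl cyclase gene, on chromosome V from 12001668 to 12002350, 186 bp away at lines 2809, 1766 and 875. The windows of the replicates spread over 283 bp there. None of the 9 genes of the ETS factor list had a gene-flanking region, and 2 had a shared region inside. Of the 20 BAG neuron genes, 1 had a shared region inside and 3 had one from 500 to 2000 bp away. Over all 19971 protein-coding genes these numbered 512 and 944. In the full lists BAG neuron genes with a window within 500 bp outside numbered 1, 2 and 3 (5%, 10% and 15%). Over all protein-coding genes the shares were 4.15%, 3.8% and 5.52% in replicates 1 to 3.

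Further genes known from neurons also had gene-flanking regions and are named here after their values were seen. The region beside syd-2, the liprin gene of synapse assembly, lay 320 bp away at lines 541, 166 and 316. That beside unc-44, an ankyrin gene, lay 59.3 bp away at lines 84, 173 and 845. That beside acr-12, a nicotinic receptor subunit gene, stood at lines 478, 682 and 1596, and that beside snt-4, a synaptotagmin gene, at lines 680, 485 and 1277. They form no list. As a share of lines, the regions beside unc-44, acr-12 and snt-4 stood later in replicate 3 than in the other lists. Other genes known from neurons went either way. Regions beside sax-3, the Robo gene of axon guidance, at lines 636, 630 and 2836, and beside trpa-1, a TRP channel gene, at lines 568, 401 and 2194, stood later in replicate 3 than in the other lists. Regions beside pdfr-1, a neuropeptide receptor gene, at lines 985, 1495 and 257, and beside nsf-1, of membrane fusion, at lines 2866, 2312 and 1218, stood earlier in replicate 3.

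Histone genes had 5 of 81 members with a gene-flanking region (6.17%), vesicle traffic genes 7 of 106 (6.60%), and respiratory chain genes 4 of 70 (5.71%). Mitochondrial ribosomal proteins had 3 of 71 (4.23%), splicing factors 2 of 50, ubiquitin pathway genes 2 of 68 (2.94%), proteasome subunits 1 of 33 (3.03%) and aminoacyl-tRNA synthetases 1 of 32 (3.12%). Several of these counts moved by over 1.5 times when a replicate was left out. Without replicate 2 they were 10 for histones, 4 for proteasome subunits and 2 for aminoacyl-tRNA synthetases, with 573 genes in all. Without replicate 1 they were 8 for respiratory chain genes, 5 for mitochondrial ribosomal proteins and 2 for proteasome subunits, with 539 genes in all, and without replicate 3 splicing factors had 1. Counting only regions wholly outside genes, histones, splicing factors, proteasome subunits and aminoacyl-tRNA synthetases each had 0, with 184 genes in all. Vesicle traffic genes then had 4. They had 1 in the first 50% of lines, with 214 genes in all, and 3 within 250 bp, with 259 in all. The region beside the mitochondrial gene mrpl-39, shared with gly-7, stood at lines 497, 676 and 21, so that replicate 3 placed it near its head. That beside sec-61.G, a gene of the translocon that passes proteins into the endoplasmic reticulum, stood at lines 344, 668 and 75. The region beside vps-39, of vacuolar sorting, stood at lines 1909, 1170 and 90. The region beside nuo-4, a subunit gene of respiratory complex I, stood at lines 443, 265 and 258. In contrast, the region beside ubc-3, a ubiquitin-conjugating enzyme gene, stood at lines 44, 20 and 610.

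In several of these lists the count in the full lists was highest in replicate 3, as it was over all protein-coding genes, with 829, 758 and 1102 in replicates 1 to 3. Histone genes with a window within 500 bp outside numbered 10, 5 and 23 in replicates 1 to 3, and splicing factors 4, 1 and 10. Proteasome subunits numbered 3, 3 and 8, and vacuolar ATPase genes 0, 0 and 5, with no gene-flanking region among the 21 genes of the latter. Nuclear hormone receptor genes numbered 7, 8 and 8.

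Large gene families lay at or below the percentage of all genes. Nuclear hormone receptors had 4 of 269 (1.49%), namely nhr-3, nhr-58, nhr-49 and nhr-1. Homeobox factors had 1 of 90, ceh-39, while 5 of them had a shared region inside. Leaving out each replicate in turn gave 2 homeobox factors each time. Collagens had sqt-2 alone of 172, C-type lectins clec-170 and clec-121 of 239, and neuropeptides nlp-40 alone of 147. Without replicate 3 collagens had 3, and without replicate 2 neuropeptides had 2. Counting only regions wholly outside genes, nuclear hormone receptors and neuropeptides each had 0. Chemoreceptors had 4 of 1309 (0.306%), namely srw-35, srh-16, str-12 and str-3. The region of str-3 lay 456 bp from str-3 and closer to M7.12, in a gap of 465 bp. Major sperm protein genes had none of 31.

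**Figure D5:**
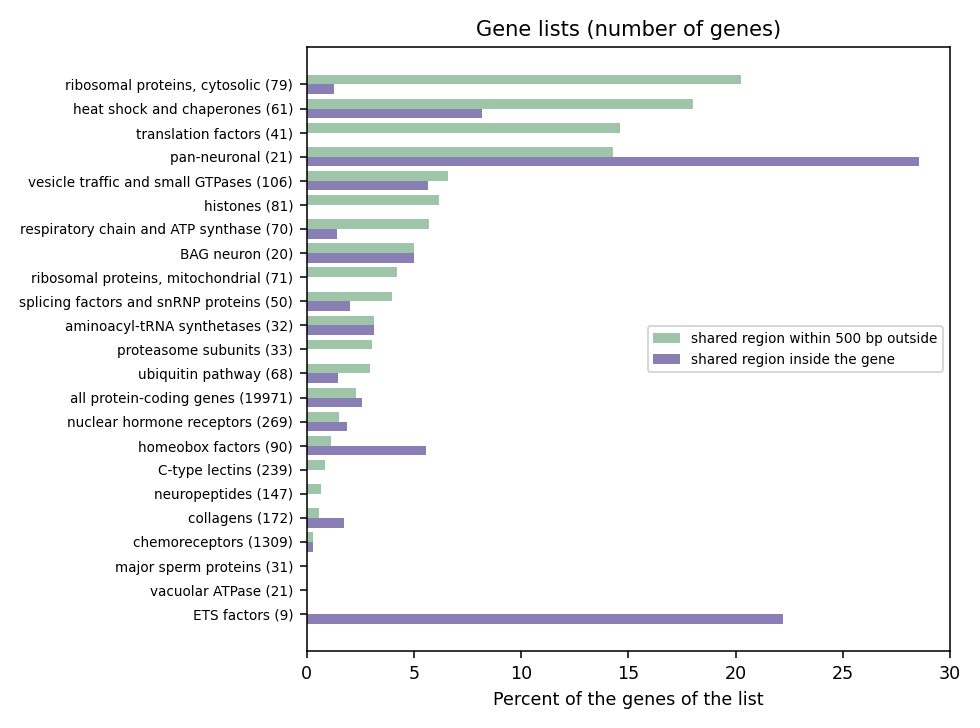
Bars give, for each gene list, the percent of its genes with a gene-flanking region (green) and with a shared region inside the gene (purple), with the number of genes in brackets. The green bar of cytosolic ribosomal proteins stands at 20.3%, against 2.3% of all protein-coding genes, while pan-neuronal genes have more members with a region inside (6) than beside (3).

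A minority of gene-flanking regions lay in a gap shared by close neighbours, a share only a little above that of positions. A gene on either side lay within 500 bp for 86 regions (23.1%, exact 95% binomial interval 18.9% to 27.7%), against 18.5% of positions within 500 bp of genes. The gene-free stretch around a region had a median of 1604 bp and ran from 178 to 32899 bp, and the positions had a median of 1655 bp. The shortest was between prp-18, a splicing factor gene, and mccc-1, at lines 834, 889 and 1099. The longest lay beside nhr-1. Of the 15 ribosomal regions, 14 had a second gene within 500 bp, against 89 of all 373 regions. A region in such a gap cannot be given to 1 of its genes by position alone.

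Gene-flanking regions seldom lay close to another shared region. Within 2000 bp of their centre lay the centre of another shared region for 28 of them (7.51%), against 17.7% of the other shared regions. Of all genes, 3 had 2 gene-flanking regions each, namely ctf-4, hmg-1.1 and C17H12.10. The gene hmg-1.1, of the high mobility group proteins, had its regions at lines 1797, 848 and 1186 and at lines 2996, 2894 and 3381. The latter has the latest mean place of all 373.

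Annotated non-coding RNA genes overlapped gene-flanking regions. The centre lay inside a gene of type ncRNA for 38 of them (10.2%, exact 95% binomial interval 7.31% to 13.7%), against 1.37% of positions within 500 bp of protein-coding genes. In the full lists the share was 8.08%, 7.49% and 9.15% (8.24% ± 0.838, SD, n = 3). The other position classes also lay above their positions. The share was 12% from 500 to 2000 bp out against 1.66% of positions, 7.84% beyond 2000 bp against 2.08%, and 7.27% inside genes against 0.715%. The earliest-listed of the 38 were that near nhr-3, inside H01A20.4, and that near seip-1, inside R01B10.7. A transfer RNA gene was within 200 bp of 2 regions (0.536%, against 0.405% of positions), and a small nuclear RNA gene of 3 (0.804% against 0.12%), including sls-2.4 and sls-2.1, genes of the spliced leader RNA that is joined to worm transcripts. Such small RNA genes often have near-identical copies, which makes these uncertain.

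Since windows had to overlap for a region to be shared, the spread of their centres within a region is bounded by the choice of regions and is given as a description. The centres of the 3 windows of a region spread over a median of 43 bp, with quartiles of 26 and 77 bp, from 1 bp to 412 bp. For shared regions inside genes the median was 48 bp. The tightest were those beside K08F11.1 at lines 297, 719 and 33 and between srdf-3 and gna-1 at lines 2011, 1082 and 2807, each with a spread of 1 bp. The widest lay between mecr-2 and spat-2, at lines 1816, 1921 and 2262. The next widest, with a spread of 393 bp, lay beside the tubulin gene tba-2 at lines 1277, 638 and 405.

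The limit of 500 bp runs through a continuous range of distances. Just inside lay the regions of bcat-1 at 497 bp, R11E3.1 at 498 bp and K09E9.4 at 499.7 bp. Just outside, and thus not counted, lay those of rpl-35 at 500.3 bp, C16H3.3 at 501 bp and lin-15A at 503 bp. The latter stood at lines 3, 4 and 3, earlier than any gene-flanking region, and that of rpl-35 stood at lines 1163, 804 and 92.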

How the data were processed

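Per the labels, frozen and ground worm lysates were cross-linked with formaldehyde, sonicated and precipitated with an antibody. Per the submitters' processing notes Bowtie2 and MACS2 were used, with no version. The sources used here do not state settings, control, threshold, genome build or what the line order means. The authors deposited 1 list per ETS-5 precipitate with chromosome, start and end of windows 400 bp wide and no score. Starts were taken to count from 0.

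Genes came from a RefSeq table of WBcel235, with 19971 protein-coding genes on 6 nuclear chromosomes, and no coordinates of it are printed. The chromosome length is the last position in the table or the lists. It holds no strand or sequence, so the planned shares upstream of genes and of ETS words, and the printing of promoters, were not done. The regions and gene lists were chosen with earlier results of these data known, and the name patterns of 6 lists were corrected after their matches to the regions were seen, which changed the number of genes in 4 (chemoreceptors, vesicle traffic, respiratory chain, homeobox). The shares in the first 10% of lines, the order of replicates by gene list, the bands of distance, the chromosomes, the gaps, the distance to other shared regions, gene names and spans, and the non-coding RNA genes were added after values had been seen.

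Shares of positions count every base of the genome in the same class, with no random placement. A gene has a gene-flanking region if the centre lies within 500 bp of either end. A relative line is the line number as a share of its list, and the earliest regions are those with the lowest mean over 3 lists. Named were the 20 earliest, up to 8 genes of each list, regions with more than 1 gene within 500 bp, those at the limit of 500 bp, and those of smallest and largest spread. Genes outside that rule (rpl-41.1, rpl-41.2, hsp-110, hmg-1.1, ctf-4, C17H12.10 and those marked in the text) were chosen after their values were seen. Merging and placing recovered nearly all planted regions on simulated lists. The planted regions lay away from gene ends and from the limit of 500 bp, and their windows lay closer together than in the widest regions. Placing at the limit or with a wide spread was therefore not checked. Comparisons between classes used an exact sign-flip permutation test over 3 lists with Benjamini-Hochberg adjustment. Python 3.11.15, numpy 2.4.6, scipy 1.17.1 and pandas 2.3.3 were used.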

Additional observations from a re-analysis of the deposited data

How the results depend on the processing

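No paired analysis was possible because lists of 1 group only were used, so the replicate block has no second group. The number of gene-flanking regions was 373. It was 634 with regions of at least 2 replicates, 174 with the first 50% of lines, 227 and 565 with limits of 250 and 1000 bp, and 166 with the whole region outside genes. In the same order the genes with such a region numbered 789, 214, 259, 757 and 184, against 459. The percent of shared regions that flank genes was 12.7% and 31.6% with those limits, 9.28% with the whole region outside and 25.5% with all gene types. The mean percent of each list was 12.7%, 30.04%, 10.6% and 25.03%. With the whole region outside, 12 of the 22 lists had a gene with a region, against 19. The median relative line, averaged over lists, was 32.1%, with 40.2% for at least 2 replicates and 16.99% for the first 50% of lines. The median spread was 36 bp with the first 50% of lines.

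Leaving out 1 replicate at a time gave 428 to 492 regions and 539 to 588 genes. The relative line then ranged from 35.5% to 40.2%, and the spread, over 2 windows, from 22.5 to 31 bp. The excess in recovery over windows inside genes turned from 2.29 to -0.67 percentage points without replicate 3, and was 2.62 without replicate 1. It reached 4.02 with a limit of 1000 bp. Ribosomal genes numbered 16, with 18 without replicate 3, 25 without replicate 2, 4 within 250 bp and 10 with the whole region outside. Chaperone genes numbered 11, with 17 without replicate 2, 3 in the first 50% of lines, 7 within 250 bp and 4 with the whole region outside. Pan-neuronal genes numbered 3, with 5 without replicate 3, 5 within 1000 bp, 1 within 250 bp and 3 with the whole region outside. The order of the lists by percent of their genes thus changed with the setting. Shifts of 100 bp and an overlap of 100 bp moved none of the results other than single gene lists beyond the spread allowed. The shares upstream of genes and of ETS words were not run. The lists hold no depth.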

Other observations

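Gene-flanking regions lay towards the middle of the chromosomes. In the central 50% of the length of each chromosome stood 230 of the 373 regions (61.7%, exact 95% binomial interval 56.5% to 66.6%), against 50.96% of positions within 500 bp of genes. In the full lists the share was 60.5%, 64.2% and 55.6% (60.1% ± 4.30, SD, n = 3). This split was chosen after the data were seen and was not tested.

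Some further regions are named singly, after their values were seen, and form no list. A region lay between nra-2 and lin-53, a gene of chromatin assembly and repression, at lines 840, 981 and 242, and one between lin-35, the worm Rb gene, and vps-51 at lines 2807, 2305 and 647. Both stood earlier in replicate 3 than in the other lists as a share of lines. The region beside brc-1, the worm BRCA1 gene, stood at lines 381, 344 and 323. The region beside uggt-1, of glycoprotein folding, stood at lines 554, 393 and 1170, that beside trap-2 at lines 1217, 1024 and 1391, and that beside enpl-1, an endoplasmic reticulum chaperone gene, at lines 2154, 2630 and 1926.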
